A study of Mus musculus with 4 samples.

Results

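The zinc finger cluster on distal mouse chromosome 4 is described here as the peaks of phosphorylated Smad proteins that lie in a 3 Mb window, chr4:145000001-148000000 of the mm10 build. Every deposited peak on chromosome 4 whose midpoint lies in the window is a member, which gave 218 of the 18646 peaks of the series. Of these, 146 belonged to the pSmad1/5 list of 10741 peaks and 72 to the pSmad3 list of 7905 peaks. The window was chosen by the position and density of its peaks, measured in these same lists, so its density is described and not tested. The samples were tooth germs of the molars from wild-type embryos of CD1 mice at stage E13.5, in embryonic days, dissociated into a cell suspension and profiled by CUT&RUN, an assay in which an antibody tethers micrococcal nuclease to chromatin so that the DNA around bound proteins is cut free and sequenced. Phosphorylated Smad1/5 (pSmad1/5) was the target in 2 libraries and phosphorylated Smad3 (pSmad3) in the other 2, with no treatment and no mutant allele in any of them. The authors deposited 1 list of common peaks per antibody, so no value per library, no spread between libraries and no read depth could be given. Ranges beside shares are exact 95% Clopper-Pearson intervals, which cover counting error only. A deposited row is called a peak, and rows with the same total signal, maximum signal and region of the maximum are pieces of 1 call. The 146 pSmad1/5 peaks came from 72 calls and the 72 pSmad3 peaks from 58 calls.

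Clusters of zinc finger genes arise by repeated duplication of a gene, and distal chromosome 4 holds one of the large mouse clusters of this kind. Many of their products carry a KRAB domain, bind DNA through arrays of zinc fingers and silence transposable elements by recruiting a co-repressor that leads to repressive chromatin. Smad1 and Smad5 are phosphorylated by receptors for bone morphogenetic proteins and Smad3 by receptors for TGF-β and activin. Both kinds then bind DNA together with Smad4, Smad3 and Smad4 at GTCT or CAGAC elements and Smad1/5 at GC-rich elements such as GGCGC. Signals of both families pass between epithelium and mesenchyme in the early tooth.

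The gene table showed the repetition directly. Of the 28 protein-coding genes that touch the window, 16 carry a Zfp symbol, which fits the name of the cluster. RefSeq promoter sequences of the GRCm38.p6 table, the same assembly as mm10, reached 12 of these genes with 15 promoters, each running from 250 bases before to 50 bases after a transcription start. An identical run of 24 bases stood in 7 of the 15 Zfp promoters, in the promoter of Rex2 in the same window and in 0 of the 32579 promoters elsewhere. With up to 4 mismatches it was found in 10 promoters of the window, and elsewhere in 2 promoters of 1 gene on chromosome 9, Tmem123. The run began 25 to 82 bases before the start. The 84 bases around it are shown for all 10 promoters, to show how alike these copies are. The sequence under the peaks themselves was not read. Each reads 5′ to 3′ on the strand of its gene, and capitals mark the run.
Zfp980, chr4:145670607-145670690, plus strand: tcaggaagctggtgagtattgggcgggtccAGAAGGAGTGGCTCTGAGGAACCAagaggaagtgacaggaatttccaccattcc
Zfp987, chr4:146097212-146097295, plus strand: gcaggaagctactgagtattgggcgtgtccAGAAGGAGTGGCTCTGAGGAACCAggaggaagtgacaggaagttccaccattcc
Zfp600, chr4:146156743-146156826, plus strand: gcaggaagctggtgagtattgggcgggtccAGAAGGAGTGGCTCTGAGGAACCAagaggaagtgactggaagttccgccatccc
Zfp981, chr4:146514808-146514891, plus strand: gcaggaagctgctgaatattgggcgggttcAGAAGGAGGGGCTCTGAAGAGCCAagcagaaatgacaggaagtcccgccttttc
Rex2, chr4:147021766-147021849, plus strand: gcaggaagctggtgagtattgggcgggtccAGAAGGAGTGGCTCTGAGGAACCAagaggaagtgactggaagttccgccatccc
Zfp988, chr4:147305541-147305624, plus strand: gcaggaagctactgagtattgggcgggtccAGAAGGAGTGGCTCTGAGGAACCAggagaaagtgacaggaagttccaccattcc
Zfp982, chr4:147492317-147492400, plus strand: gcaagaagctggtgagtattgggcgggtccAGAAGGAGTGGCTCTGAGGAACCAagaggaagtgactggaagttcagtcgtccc
Zfp985, chr4:147553192-147553275, plus strand: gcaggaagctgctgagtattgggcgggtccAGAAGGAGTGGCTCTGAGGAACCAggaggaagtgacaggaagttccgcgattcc
Zfp979, chr4:147642515-147642598, minus strand: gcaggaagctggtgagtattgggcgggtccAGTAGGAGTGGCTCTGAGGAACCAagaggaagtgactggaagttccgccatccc
Zfp534, chr4:147702603-147702686, minus strand: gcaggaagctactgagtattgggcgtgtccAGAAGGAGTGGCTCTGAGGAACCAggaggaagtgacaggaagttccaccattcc
The copy at Zfp979 has 1 mismatch and the copy at Zfp981 has 3. The run was taken as the 24 bases that the most genes of the window share, so its counts are a description.

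Some whole promoters were alike as well. With 1 promoter per gene, the 66 pairs of Zfp genes had a median identity of 60.9% in global alignment (44.8 to 94.8), and 10 pairs were over 80%. The promoter with the lowest coordinate was taken for each gene. For Zfp982 that is a promoter without the run, not the one shown above. The 55 pairs of other genes of the window had a median of 48.4% (42.1 to 67.3), and none was over 80%. The 132 pairs of a Zfp gene with another gene had a median of 47.6% (41.8 to 99.3). Of these, 5 were over 80%, each with Rex2 or Gm13212. Both count as other genes here because genes were classed by symbol. Rex2 and Zfp600 shared 99.3% of their bases, Zfp600 and Zfp979 94.8%, and Zfp988 and Zfp534 89.8%. Reads from such copies can fit several places in the genome. The placing of such reads was not given in the sources used here. Calls at a named copy may thus hold reads of another, and the part this plays in the values below was not tested. The embryos were of the CD1 stock, which is not the strain of the reference assembly.

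Peaks were dense and unevenly spread along the window. There were 48.7 pSmad1/5 peaks per Mb in the window, against 5.35 in the rest of chromosome 4 and 3.94 in the rest of the list, a ratio of 12.3 to the rest of the list. For pSmad3 there were 24 peaks per Mb in the window, against 4.66 in the rest of chromosome 4 and 2.92 in the rest of the list, a ratio of 8.21 to the rest of the list. Counted as calls, the ratios to the rest of the list were 7.73 for pSmad1/5 (24 against 3.10 calls per Mb) and 6.79 for pSmad3 (19.3 against 2.85). Pieces of the same call thus made up part of the density, more for pSmad1/5 than for pSmad3. The peaks covered 816.5 kb or 27.2% of the window for pSmad1/5 and 913.0 kb or 30.4% for pSmad3.

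**Figure D1:**
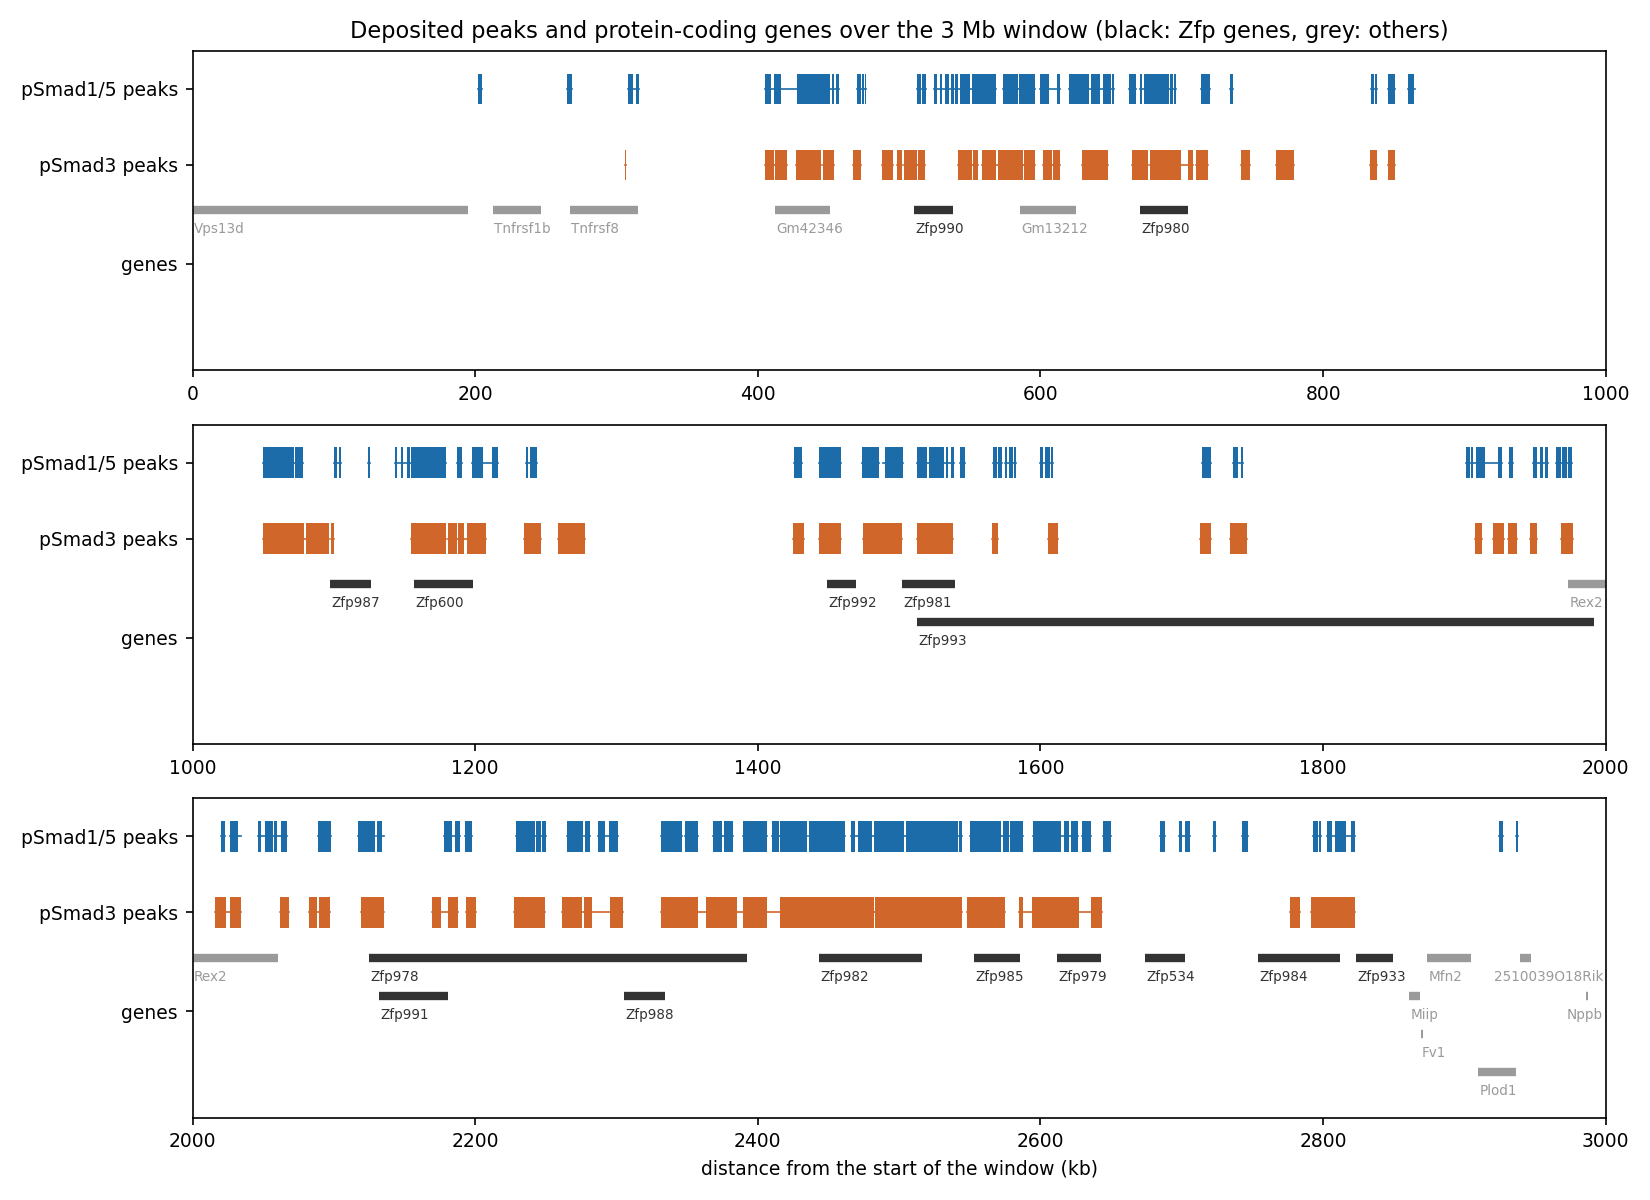
Deposited pSmad1/5 peaks (blue blocks, top of each panel), pSmad3 peaks (orange blocks) and protein-coding genes (black bars for Zfp genes, grey bars for others) along the window, 1 Mb per panel, with distance from the start of the window in kb on the x axis. Thin lines join the pieces of a call. Peaks of both lists lie over many of the Zfp genes and also between them, and the widest gap between neighbouring peaks is 185 kb.

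Dense stretches alternated with gaps, some between Zfp genes and some within a long one. Of 30 bins of 100 kb, 25 held a pSmad1/5 peak, 23 a pSmad3 peak and 23 both, and 5 held neither. The fullest bin had 12 pSmad1/5 peaks, and the fullest for pSmad3 had 8. The longest gap between neighbouring peaks of either list ran for 185 kb (145865156 to 146049977), between Zfp980 and Zfp987, where no protein-coding gene lies. Another of 148 kb (146277742 to 146425246) lay between Zfp600 and Zfp992. A stretch of 155 kb (146746181 to 146901386) and another of 101 kb lay within the body of Zfp993, which spans 478623 bp. The last, of 102 kb (147822663 to 147924326), begins between Zfp984 and Zfp933 and holds the gene bodies of Zfp933, Miip, Fv1 and Mfn2.

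At its edges the window was sparse. On the left, the first pSmad1/5 peak inside (145202232 to 145204843) had a total signal of 43103 and a maximum of 14, and the last outside (144661061 to 144661746) had 44075 and 14. The first pSmad3 peak inside on that side (145306374 to 145306390) had 29012 and 10, and the last outside (144891389 to 144895653) had 21716 and 12. On the right, the last pSmad1/5 peak inside (147936454 to 147937774) had 50665 and 13, and the first outside (148075387 to 148077611) had 130997 and 18. For pSmad3 the last peak inside (147791148 to 147822662) had 283146 and 26, and the first outside (148042476 to 148045121) had 37654 and 14. No peak crossed an edge, and members were the same with the whole peak in the window or with any base in it.

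The window was set beside all 881 windows of 3 Mb on the autosomes and X. It held the most peaks of either list and the most pSmad1/5 calls, and its 58 pSmad3 calls were second to the 62 of another window and equal to those of a few more, where the median window held 6 pSmad1/5 peaks and 4 pSmad3 peaks. The next densest by calls of both lists together, 25 to 28 Mb of chromosome 2, had 83 pSmad1/5 and 67 pSmad3 peaks. The other 18 windows with 5 or more Zfp genes held fewer peaks, 3 to 55 for pSmad1/5 and 0 to 37 for pSmad3. The part of Zfp gene content in the density was not tested. The window with the most Zfp genes, 67 to 70 Mb of chromosome 13 with 23, had 3 pSmad1/5 and 2 pSmad3 peaks. Of those 18 windows, that at 175 to 178 Mb of chromosome 2 had 12 pSmad1/5 and 37 pSmad3 peaks, and it stands apart in the plot of windows for its many pSmad3 peaks. The other windows and the rule of 5 Zfp genes were chosen after the data had been seen.

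**Figure D2:**
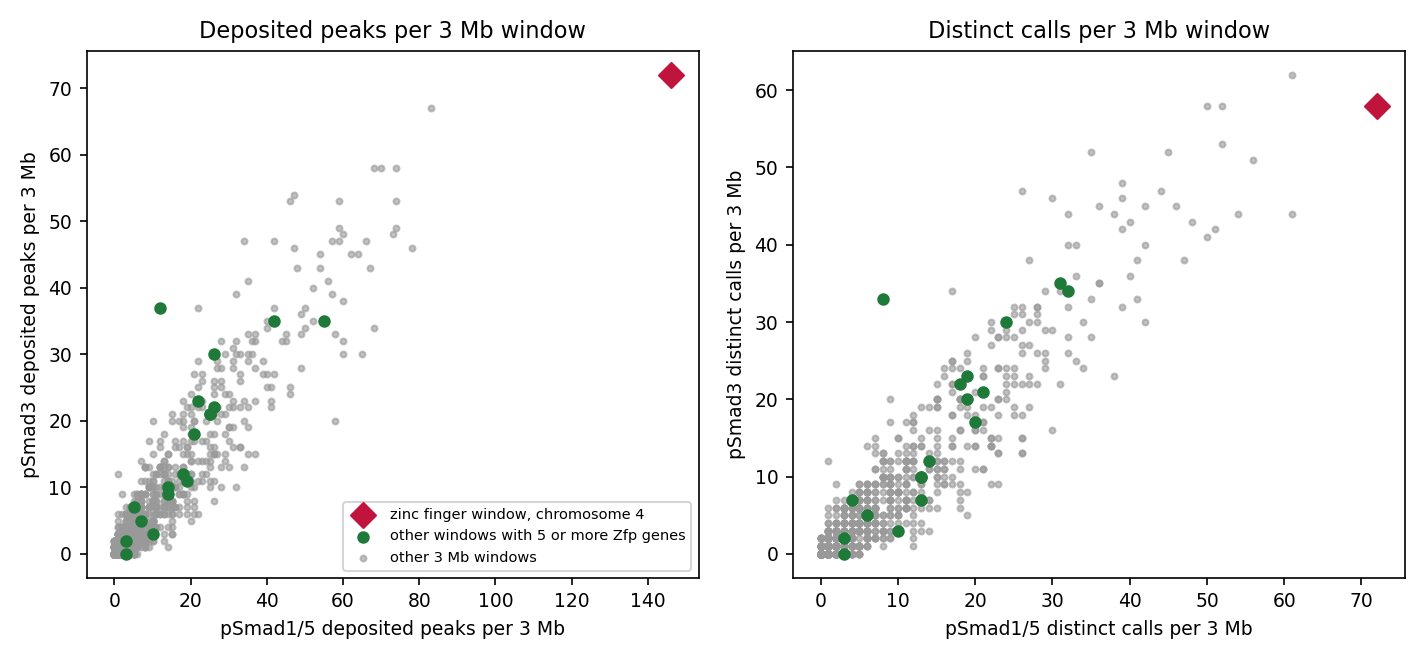
Each point is 1 window of 3 Mb on the autosomes or X, with its number of pSmad1/5 peaks (x axis) and pSmad3 peaks (y axis) on the left and of distinct calls on the right. The red diamond, the zinc finger window of chromosome 4, lies at 146 and 72 peaks and at 72 and 58 calls; green circles, other windows with 5 or more Zfp genes, reach at most 55 and 37 peaks.

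Calls in the window were deposited in several pieces more often than in the rest of the lists, with wide peaks and high maximum signals. Signals are the authors' values per call, in a scaling that no source used here gives, and are compared only within a list. Of the 72 pSmad1/5 calls, 40 (55.6%) were deposited in several pieces, against 20.1% over the whole list and 19.8% in the rest of it, and of the 58 pSmad3 calls 10 (17.2%), against 2.69% over the whole list and 2.58% in the rest of it. The median peak was 3468 bp wide for pSmad1/5 (quartiles 2065 and 6492), against 2373 bp in the rest of the list. For pSmad3 the median was 7893 bp in the window (quartiles 6046 and 16348), against 4672 bp in the rest of the list. From first to last piece the longest calls ran over 78.2 kb for pSmad1/5 and 150 kb for pSmad3.

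The maximum signal of the pSmad1/5 calls ran from 13 over a median of 36.5 to 79 in the window (quartiles 23.0 and 47.5), against a median of 16.0 in the rest of the list (quartiles 14.0 and 18.0). For pSmad3 it ran from 10 over 24 to 49 in the window (quartiles 18.0 and 34.5), against a median of 13.0 in the rest of the list (quartiles 12 and 15). Of the pSmad1/5 calls 68 of 72 lay above the median of their list, and of the pSmad3 calls 55 of 58. A maximum over 2 times the list median was found in 42 of 72 pSmad1/5 calls (58.3%, 46.1 to 69.8), where 5.88% of the whole list had one. The same was so of 24 of 58 pSmad3 calls (41.4%, 28.6 to 55.1), where 5.08% of the whole list had one. The highest signals of the series lay elsewhere, since 0 calls of the window passed a maximum of 100 in either list. In the rest of the lists 181 of 8241 pSmad1/5 and 135 of 7562 pSmad3 calls did so. The cumulative share at or below 100 there was 0.978 for pSmad1/5 and 0.982 for pSmad3. Such calls were thus rare in the rest as well, and their absence among 72 and 58 calls is not read as a trait of the window. The window held many calls of a middle to high range.

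**Figure D3:**
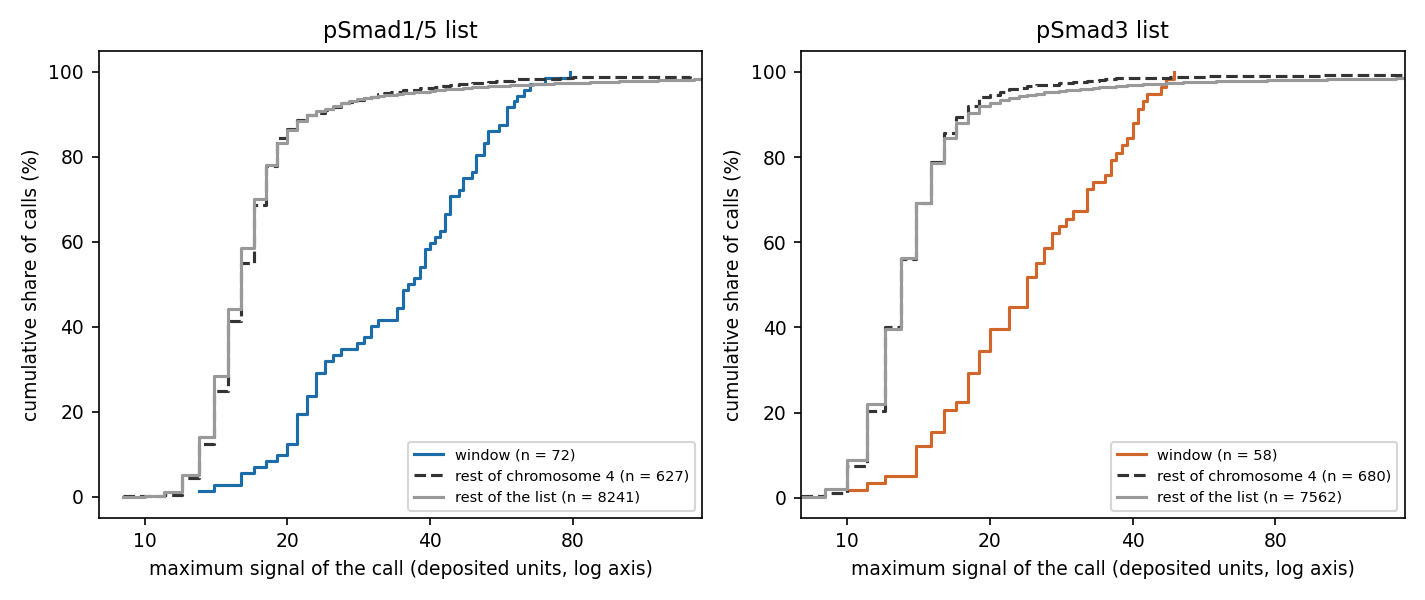
Cumulative share of calls (y axis, percent) up to each maximum signal (x axis, log scale, deposited units) in the pSmad1/5 list on the left and the pSmad3 list on the right; the axis ends before the highest calls outside the window. The coloured line, the window, climbs to the right of the dashed line for the rest of chromosome 4 and the grey line for the rest of the list, with medians of 36.5 in the window against 16.0 in both others for pSmad1/5, and 24 against 13.0 in both others for pSmad3.

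The largest calls lay at and around Zfp982. The pSmad1/5 call from 147466250 to 147544446 had 5 pieces, the highest total (1136059) and the highest maximum (79) of the window, and its maximum lay 3210 bp from the end of Zfp982. The pSmad3 call from 147331709 to 147482090 had 4 pieces and the highest total (1925692) and maximum (49) of its list in the window, and its total lay at the 99.8th percentile of the list. It overlapped 7 pSmad1/5 calls. The next pSmad3 call (147482977 to 147544483) was a single piece of 61.5 kb with a total of 575173. Its overlap with the first pSmad1/5 call, 59442 bp, was the longest between calls of the lists in the window, followed by 29019 bp at Zfp979 and 26939 bp next to Zfp987.

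High totals and high maxima fell together at other genes as well, though not always. The second highest pSmad1/5 total, 939938 in 6 pieces, lay over Gm42346, and the third, 763410 in 7 pieces with a maximum of 70, had its maximum 22346 bp from Zfp990. A pSmad1/5 call deposited as 1 piece of 1.70 kb at Zfp987 (146124203 to 146125903) had a maximum of 65 but a total of 47801, at the 38th percentile of its list. The third highest pSmad3 total, 571541, came from a call of 27.4 kb whose maximum lay 11241 bp from Zfp992.

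A larger share of peaks overlapped between the lists in the window than in the rest of the lists. Of the 146 pSmad1/5 peaks, 96 (65.8%, 57.5 to 73.4) overlapped a pSmad3 peak by at least 1 bp, where the share was 21.9% over the whole list, 24.0% in the rest of chromosome 4 and 21.3% in the rest of the list. Of the 72 pSmad3 peaks, 58 (80.6%, 69.5 to 88.9) overlapped a pSmad1/5 peak, where the share was 23.1% over the whole list, 22.7% in the rest of chromosome 4 and 22.6% in the rest of the list. The peaks shared 637.2 kb, which is 78.0% of the bases under pSmad1/5 peaks and 69.8% of those under pSmad3 peaks. In the rest of the lists the shared bases were 27.3% of the pSmad1/5 and 19.4% of the pSmad3 bases. The peaks covered 27.2% of the window for pSmad1/5 and 30.4% for pSmad3, and the part this coverage has in the overlap was not tested.

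The overlap was lower without the calls of high maximum, which were left out of both lists at once, so that peaks also lost partners. Without the peaks whose maximum was over 2 times the list median, in both lists, 30.6% of the remaining 49 pSmad1/5 peaks (18.3 to 45.4) and 29.7% of the remaining 37 pSmad3 peaks (15.9 to 47.0) still overlapped, against 16.0% of pSmad1/5 and 17.8% of pSmad3 peaks in the rest of the lists limited in the same way. For pSmad3 the value of the rest lies within the interval. For pSmad1/5 it lies below, but the interval counts pieces of a call as independent and is thus too narrow to judge the difference. The ratios of peak density to the rest of the list then fell to 4.47 for pSmad1/5 and 4.44 for pSmad3. Among the 10 densest other windows of 3 Mb, 15.7% to 26.9% of pSmad1/5 peaks and 17.9% to 37.2% of pSmad3 peaks overlapped, with median maxima of 15.5 to 17.0 for pSmad1/5 and 13.0 to 14.0 for pSmad3. Shares of the same order as in the zinc finger window were found in some dense windows of 1 Mb. In the 3 separate Mb of the zinc finger window the shares were 61.4%, 60.9% and 73.2% for pSmad1/5 and 73.1%, 86.4% and 83.3% for pSmad3. At 18 to 19 Mb of chromosome 12, 62.5% of the 48 pSmad1/5 and 63.3% of the 30 pSmad3 peaks overlapped, at 6 to 7 Mb of chromosome 14 73.9% of 46 and 56.7% of 30, and at 15 to 16 Mb of chromosome 7 81.6% of 38 and 41.9% of 31.

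Overlapping calls seldom peaked at the same base. The 65 pairs of overlapping calls in the window joined 53 pSmad1/5 with 49 pSmad3 calls, and 24 pairs were one to one. The centres of their maxima were a median of 5.87 kb apart, against 3.02 kb over the 1781 pairs outside. Calls also spanned more bases in the window, from first to last deposited piece. Their median span was 7772 bp for pSmad1/5, against 2619 bp in the rest of the list, and 8424 bp for pSmad3, against 4759 bp. The pieces need not hold a whole call, so call lengths themselves are not known. The pSmad3 call of 150 kb alone was in 7 of the 65 pairs. The part of call span in these distances was not tested. In the window 14 pairs (21.5%) lay within 1 kb and 8 (12.3%) within 100 bp, against 30.2% and 15.1% outside. At Zfp978, 1 such pair had its maxima 76.5 bp apart, with a pSmad1/5 call (147228692 to 147249897) of maximum 44 and a pSmad3 call (147227551 to 147249668) of maximum 46. The closest pair, 10 bp apart, lay within Zfp993 (146948329 to 146958854 for pSmad1/5, maximum 36, and 146946162 to 146951152 for pSmad3, maximum 14).

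Nearly every Zfp gene of the window had peaks of both lists. A peak in the gene body or within 10 kb of it was found for 16 of 16 Zfp genes with pSmad1/5 and 15 of 16 with pSmad3, where 27.3% and 24.4% of all 21523 protein-coding genes had one. Elsewhere, 68 (17.8%) of 381 Zfp genes had a peak of the pSmad1/5 list and 53 (13.9%) of the pSmad3 list. Neighbouring genes of the cluster share peaks and calls, so these genes are not independent counts. The window was also chosen for its density of peaks, so its shares are described and not tested. Zfp534 was the gene without a pSmad3 peak, and its 2 pSmad1/5 calls had a highest maximum of 18. Zfp933, at the right end, had peaks only in its flank, 1 call of each list.

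The long genes held the most calls. At Zfp993 lay 12 pSmad1/5 calls in 28 peaks and 10 pSmad3 calls in 10 peaks, and 18.3% of its body lay under pSmad1/5 and 18.2% under pSmad3 peaks. Zfp978, 267146 bp long, had 12 pSmad1/5 calls in 19 peaks and 6 pSmad3 calls in 11 peaks, and pSmad1/5 peaks covered 40.1% and pSmad3 peaks 50.2% of its body. At some shorter genes peaks covered most of the body. Zfp982 lay under pSmad1/5 peaks for 85.9% and under pSmad3 peaks for 98.8% of its length, with 3 pSmad1/5 and 2 pSmad3 calls in its body and the 10 kb on either side. Zfp985 was covered for 93.3% by pSmad1/5 and 70.0% by pSmad3 peaks, with 3 calls of each list in the same range.

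Other Zfp genes were covered in part. Zfp600 was covered for 64.0% by pSmad1/5 and 89.0% by pSmad3 peaks (3 calls of each in body and flanks), and Zfp980 for 68.3% and 80.9% (likewise 3 of each). Zfp979 was covered for 58.2% by pSmad1/5 and 71.7% by pSmad3 peaks. Zfp990 had 2 pSmad1/5 and 4 pSmad3 calls in body and flanks, and 48.8% and 24.7% of its body was covered. Zfp992 had 2 of each, and 48.2% and 48.9% of its body was covered. Least covered were Zfp987, with 16.5% under pSmad1/5 and 7.16% under pSmad3 peaks, Zfp988 with 8.83% and 8.29%, Zfp991 with 9.97% and 20.1%, Zfp534 with 19.7% and 0, and Zfp933 with 0 of both. The cluster was therefore not covered evenly from gene to gene. The values at genes with near-identical promoters, such as Zfp600 and Zfp979, carry the limit on read placement given above.

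**Figure D4:**
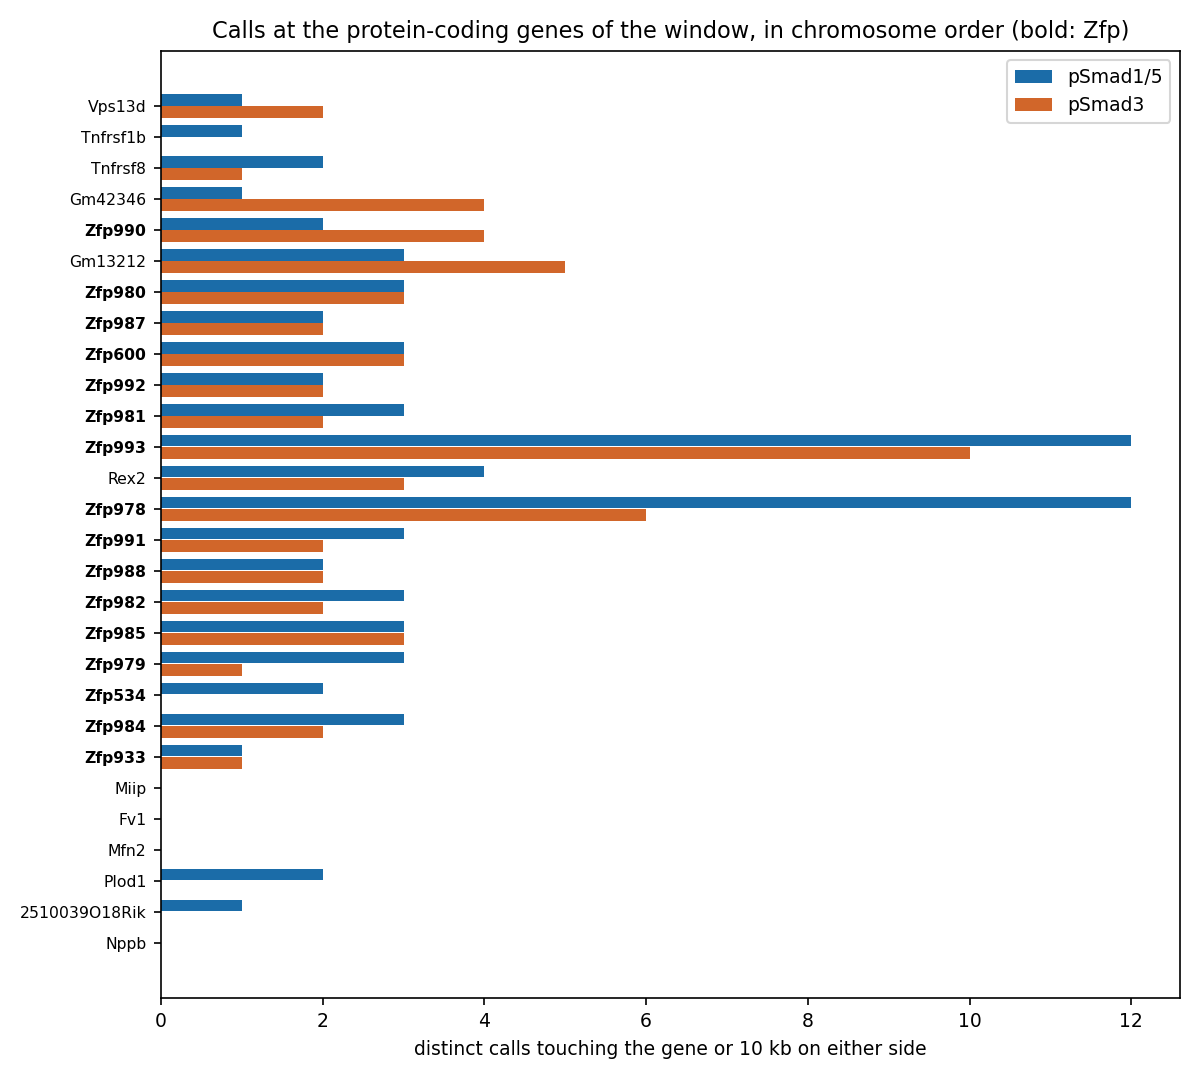
Distinct pSmad1/5 (blue) and pSmad3 (orange) calls that touch the body of each protein-coding gene of the window or 10 kb on either side (x axis, number of calls), with genes from left to right of the window going down and Zfp genes in bold. Zfp993 has 12 and 10 calls and Zfp978 12 and 6, and Mfn2, Miip, Nppb and Fv1 have none; the 2 pSmad3 calls at Vps13d lie outside the window.

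Among the 12 other protein-coding genes, a pSmad1/5 peak was found at 8 and a pSmad3 peak at 5. Elsewhere 27.4% and 24.5% of other protein-coding genes had one. The 5 include Vps13d, whose pSmad3 peaks lie left of the window, and Tnfrsf8, whose pSmad3 peak is a piece of 17 bp. Some genes share a call, as Vps13d and Tnfrsf1b do with their 1 pSmad1/5 call. Rex2 had 4 pSmad1/5 and 3 pSmad3 calls, Gm13212 had 3 and 5, and Gm42346, left of Zfp990, had 1 and 4, the last covered for 70.4% by pSmad1/5 and 81.1% by pSmad3 peaks. The other 5 with a pSmad1/5 peak had 1 or 2 pSmad1/5 calls each, with highest maxima of 13 to 21. Plod1, a collagen lysyl hydroxylase, had 2 pSmad1/5 calls with a highest maximum of 16 and 0 of pSmad3, and Tnfrsf1b, a receptor for tumour necrosis factor, had 1 pSmad1/5 call of maximum 14 and 0 of pSmad3. Mfn2 (mitochondrial fusion), Miip, Nppb (a natriuretic peptide) and Fv1 (a restriction factor for murine leukaemia virus) had no peak of either list. All 4 lie in the right flank.

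Pseudogenes in the window had peaks too. All 6 Vmn2r pseudogenes, remnants of vomeronasal receptor genes, had a peak of each list within 10 kb or in the body, against 4 of 119 (3.36%) elsewhere for pSmad1/5 and likewise 4 of 119 for pSmad3. Of 50 other pseudogenes, 45 had a pSmad1/5 and 41 a pSmad3 peak, against 8.12% and 7.19% of those elsewhere. Of 8 lncRNA genes, pSmad1/5 peaks were found at 8 and pSmad3 peaks at 7, against 18.1% and 15.6% elsewhere. The 6 Vmn2r pseudogenes had a median length of 37268 bp, against 3216 bp for the 119 elsewhere, and the part of length in their share was not tested. Some of these genes lie under the same calls as Zfp genes, so they are not independent counts. The window was chosen for its density of peaks. High shares of genes with a peak in each of these classes are therefore described and not tested.

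Most peaks lay inside genes. A gene end was within 1 kb of the midpoint in 18.5% of pSmad1/5 peaks (12.6 to 25.8), against 12.9% in the rest of the list, and in 16.7% of pSmad3 peaks (8.92 to 27.3), against 12.3%. The midpoint was inside a gene for 74.7% of pSmad1/5 peaks (66.8 to 81.5), against 62.6% in the rest of the list, and for 69.4% of pSmad3 peaks (57.5 to 79.8), against 65.0%. The 146 pSmad1/5 peaks came from 72 calls and the 72 pSmad3 peaks from 58. The intervals in this paragraph count pieces of a call as independent and are thus too narrow, so they are not used to judge a difference. With wider limits the window's shares were higher than in the rest of the lists. Within 5 kb of a gene end lay 54.8% of pSmad1/5 peaks (46.4 to 63.0), against 40.4%, and 58.3% of pSmad3 peaks (46.1 to 69.8), against 40.5%. At least 1 base in a gene had 85.6% of pSmad1/5 peaks (78.9 to 90.9), against 67.8%, and 87.5% of pSmad3 peaks (77.6 to 94.1), against 72.4%. The window holds 92 genes of all classes, pseudogenes among them, and its peaks are wider than those in the rest of the lists. The part of gene density and peak width in these shares was not tested.

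Promoters of the Zfp genes in the window were often under a peak. The window was chosen for its density of peaks, which covered 27.2% of it for pSmad1/5 and 30.4% for pSmad3. Its shares are thus described beside those of all promoters and not tested. Of the 15 Zfp promoters, 11 were touched by a pSmad1/5 peak (73.3%, 44.9 to 92.2) and 10 by a pSmad3 peak (66.7%, 38.4 to 88.2), where 3.10% and 3.84% of all 32619 promoters were touched. The 15 promoters belong to 12 genes, and the intervals count each promoter on its own. Among the 386 promoters of Zfp genes elsewhere, 2.33% and 2.85% were touched. Of the 25 other promoters of the window, 7 were touched by a pSmad1/5 and 4 by a pSmad3 peak. Those of Rex2 and Gm13212, which resemble Zfp promoters, are among the 25 and were touched by both lists. Among the 10 promoters with the shared run, 7 were touched by each list and 6 by both, namely those of Zfp980, Zfp600, Zfp981, Rex2, Zfp982 and Zfp985. Of the 30 without it 11 were touched by pSmad1/5, 7 by pSmad3 and 6 by both.

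Near-identical promoters did not all have the same state. Zfp979 was touched by a pSmad3 peak alone, with the nearest pSmad1/5 peak 1954 bp away, although it shares 94.8% with the doubly touched Zfp600. Zfp534 was touched by a pSmad1/5 peak alone. Zfp988, which shares 89.8% with it, was touched by neither, with a pSmad3 peak 691 bp away, and neither was Zfp987, with a pSmad3 peak 719 bp away. The shared run itself thus occurred with and without a deposited peak. A missing peak means no deposited call.

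Around the starts of the 12 Zfp genes, coverage was high on both sides and a little higher into the gene. The share of starts with a peak was on average 58.3% over the 20 kb downstream and 40.2% over the 20 kb upstream for pSmad1/5, and 62.6% and 44.0% for pSmad3. Both lists reached 75.0% at their highest. At 17251 protein-coding genes elsewhere the same averages were 2.32% downstream and 2% upstream for pSmad1/5, and 3.34% and 2.90% for pSmad3. Some of these starts lie under the same calls. The window was chosen for its density of peaks, so the difference from genes elsewhere is described and not tested.

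**Figure D5:**
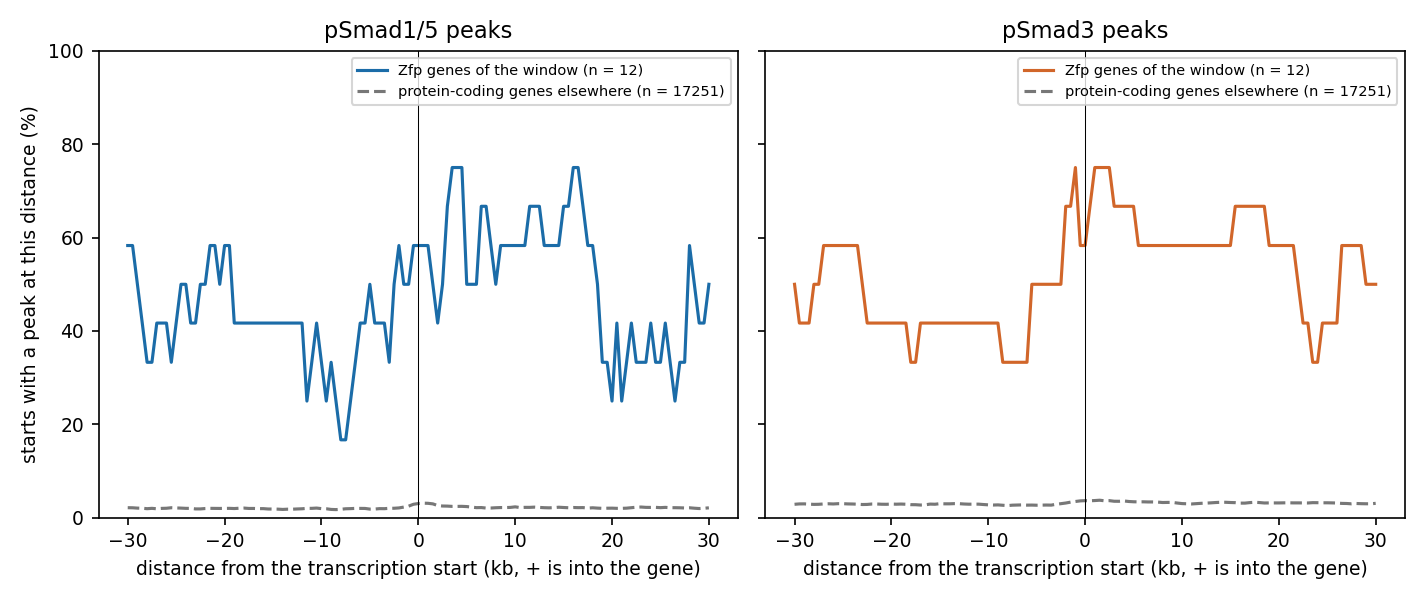
Share of transcription starts (y axis, percent) that have a deposited peak at each distance from the start (x axis, kb, positive into the gene) for pSmad1/5 on the left and pSmad3 on the right. The coloured line is the 12 Zfp genes of the window with a promoter sequence and the dashed line 17251 protein-coding genes elsewhere; the Zfp line stays between 16.7% and 75.0% for pSmad1/5 and between 33.3% and 75.0% for pSmad3, the dashed one reaches at most 3.14% and 3.77%.

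The Zfp promoters of the window held no Smad motif in a larger share than all promoters did. GTCT, searched on both strands like the others, was in 13 of 15 Zfp promoters of the window (86.7%), against 88.0% of all promoters. CAGAC, whose last letters are the reverse complement of GTCT, was in 3 of 15, against 49.5% of all promoters. GGCGC was in 3 of 15, against 37.0%, and GGCGCC, which contains it, in 0 of 15, against 12%. The palindrome GTCTAGAC was in 0 of 15, against 0.215%. The median GC content was 43.0% in the Zfp promoters of the window, against 53.0% over all promoters, and the median number of CpG was 4, against 7. These counts describe the letters in 300 bases per promoter and say nothing of binding.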

How the data were processed

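Per the labels, chromatin of dissociated molar tooth germs was digested for 30 min and sequenced as paired-end reads of 100 bp, in 2 libraries per antibody. The build mm10 and the tools SEACR, Bowtie2, SAMtools, bedtools and deepTools are named, without versions, per the submitters' processing notes. No source used here gives settings, calling threshold, any control library, the treatment of reads with several matches or the joining of libraries. As deposited, there was 1 list per antibody with the authors' coverage signal (total and maximum) per call, in the layout of SEACR output. The region of the maximum lay inside its peak for 40.4% of pSmad1/5 and 69.4% of pSmad3 peaks of the window (26.7% and 69.8% in the rest), so a peak's signal is that of its call.

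Members and lists were chosen with earlier results of these data known. Peaks were counted by midpoint, and compared on chromosomes 1 to 19, X and Y, with density taken from 3 Mb to the last peak of each chromosome. Genes came from RefSeq GRCm38.p6 on chromosomes 1 to 19 and X, and Zfp genes were taken by symbol. Promoters were aligned globally (match 1, mismatch -1, gap opening -2, extension -0.5). Of 16 Zfp genes, 12 had a promoter sequence. The planned comparison of proteins was not run. Genes named were Zfp978 and Zfp993, the 8 with most calls, those nearest the 3 highest calls by total and maximum and the 3 longest overlaps, and up to 5 without a peak. Genes outside this rule (Zfp534, Zfp933, Zfp981, Zfp984, Zfp988, Zfp991, Plod1, Tnfrsf1b, Tnfrsf8, Vps13d, Tmem123) were named after their values were seen. No test was run: 1 list per antibody gives no replicate. Scripts were tested on simulated peaks. Python 3.11.15, pandas 2.3.3, SciPy 1.17.1 and Biopython 1.88 were used.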

Additional observations from a re-analysis of the deposited data

How the results depend on the processing

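Of 50 alternative values for 22 results, 30 stayed near the reported value and 20 moved. Per call in place of per peak, the pSmad1/5 overlap was 73.6%, its density ratio 7.73 and its median total 89100 (160000 per peak). Its median span from first to last piece was 7770 bp, where the median width per peak was 3470 bp. With totals at or above the list median, the pSmad1/5 overlap was 75.7%, against 25.9% in the rest of the list. The density ratios were then 19.8 for pSmad1/5 and 15.8 for pSmad3. With maxima at or above it the ratios were 20.1 and 12.9. Window signals are high for their lists, so cuts that keep high signals raise these ratios and the cut that drops them lowers them. Without maxima over 2 times the median, the overlaps were 30.6% and 29.7% and the ratios 4.47 and 4.44. The pSmad3 overlap was 68.1% with 50% of the peak required to be covered and 65.3% by midpoint. Within 5 kb of a gene end lay 54.8% of pSmad1/5 peaks in the window, against 40.4% in the rest, and 58.3% of pSmad3 peaks, against 40.5%. Any base in a gene had 85.6%, against 67.8%, and 87.5%, against 72.4%. By gene body alone, 5 of the 12 other protein-coding genes had a pSmad1/5 peak. No paired analysis was possible because no value per library was used, and for the same reason no library could be left out. Depth is unknown, so a missing peak may be signal under the calling threshold. Pieces of a call and near-identical gene copies are not independent, and intervals treat them as if they were.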
